A study of Mus musculus with 10 samples.

Results

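R500-only regions are stretches of the mouse genome where H3K27me3 ChIP-seq gave a peak in the R500 lymphoma line and in none of 4 related lines. They were found by dropping repeated entries from the peak lists of the 5 lines, merging intervals that shared at least 1 bp into union regions, and keeping the regions with a peak in R500 alone. There were 11580 such regions among 47264 union regions (24.5%, 95% Wilson interval 24.1 to 24.9%). The members were chosen by peak positions alone, and absence from the other lists therefore defines the regions, and it is not a result about them. All 5 lines share the Eμ-Myc transgene, which drives Myc from an immunoglobulin heavy chain enhancer in B-lineage cells, the loss of Cdkn2a (Cdkn2a-/-) and the C57BL/6J background. The Parental line was grown from lymphoma cells of such mice and received no mafosfamide, the form of the alkylating drug cyclophosphamide that is active in culture. R100, R500, R1000 and R4000 were isolated from it as resistant sub-clones during dose escalation, R100 at 100 nM on day 10, R500 at 500 nM on day 18, R1000 at 1000 nM on day 23 and R4000 at 4000 nM on day 37. According to the paper, every line was cultured without mafosfamide for the H3K27me3 ChIP-seq, so dose and day describe isolation only. A single lymphoma line, 1 sub-clone and 1 peak list stand behind each dose, and dose rises with time in culture, so that dose, time and sub-clone cannot be told apart. The lists give peak positions and no read counts, heights or scores, so that the depth of each library is unknown, the amount of H3K27me3 within a peak was not measured, and no difference between lines was tested. Markers of B cells could not be read as RNA from these lists.

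H3K27me3 is the trimethyl mark that polycomb repressive complex 2, with its catalytic subunit Ezh2 and its partners Suz12 and Eed, places on lysine 27 of histone H3. The mark is best known over the CpG-rich promoters of silent developmental regulators, such as the Hox clusters, where it spreads as wide domains. In B-lineage cells Ezh2 is needed for early development and is again highly expressed in the germinal centre.

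The sequences of a few R500-only regions are given first, because the base composition of the regions is one of their main features below. They are read from the plus strand of mm9, 5′ to 3′, in lower case with every CpG in capitals. The first 5 are the central 300 bases of the widest regions, apart from one at Ctif, that touched no annotated untranslated or non-coding exon, 3 of them within 5 kb of a protein-coding transcription start site (TSS) and the other two farther away.
Car15, intergenic, chr16:17833051-17833350: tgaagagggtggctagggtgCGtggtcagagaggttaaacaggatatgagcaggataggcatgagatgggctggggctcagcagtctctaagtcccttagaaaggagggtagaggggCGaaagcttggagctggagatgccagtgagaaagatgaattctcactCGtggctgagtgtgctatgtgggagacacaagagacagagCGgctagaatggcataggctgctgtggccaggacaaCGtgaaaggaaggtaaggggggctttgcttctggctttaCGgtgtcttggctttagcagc
Fam163a, intron, chr1:158133451-158133750: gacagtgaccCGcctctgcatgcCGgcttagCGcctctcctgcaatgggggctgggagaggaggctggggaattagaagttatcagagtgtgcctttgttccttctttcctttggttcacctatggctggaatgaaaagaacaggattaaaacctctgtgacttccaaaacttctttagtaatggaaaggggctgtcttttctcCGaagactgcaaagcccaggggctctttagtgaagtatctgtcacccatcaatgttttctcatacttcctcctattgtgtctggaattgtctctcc
Tlx1, upstream of the TSS, chr19:45222776-45223075: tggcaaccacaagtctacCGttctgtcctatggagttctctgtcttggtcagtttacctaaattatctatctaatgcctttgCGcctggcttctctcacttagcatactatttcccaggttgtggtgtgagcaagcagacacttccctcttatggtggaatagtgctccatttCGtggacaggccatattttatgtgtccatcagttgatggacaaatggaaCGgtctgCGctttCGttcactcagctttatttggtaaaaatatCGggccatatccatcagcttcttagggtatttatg
intergenic, with Cxcr4 as nearest coding gene, chr1:130698476-130698775: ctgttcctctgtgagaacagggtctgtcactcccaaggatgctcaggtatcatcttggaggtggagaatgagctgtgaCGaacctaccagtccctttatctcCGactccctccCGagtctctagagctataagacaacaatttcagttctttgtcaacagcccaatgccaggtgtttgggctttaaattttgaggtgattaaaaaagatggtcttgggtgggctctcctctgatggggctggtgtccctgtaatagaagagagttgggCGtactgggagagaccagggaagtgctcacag
intergenic, with Uncx as nearest coding gene, chr5:140013276-140013575: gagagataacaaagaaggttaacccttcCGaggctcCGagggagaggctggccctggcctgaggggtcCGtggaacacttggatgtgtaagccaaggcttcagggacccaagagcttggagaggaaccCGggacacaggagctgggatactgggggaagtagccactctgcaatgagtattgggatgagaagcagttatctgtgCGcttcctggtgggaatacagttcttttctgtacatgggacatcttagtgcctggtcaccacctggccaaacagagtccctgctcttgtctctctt
These 5 windows held 6, 4, 7, 4 and 5 CpG, with a GC content of 53.7, 48.0, 44.0, 49.7 and 54.3%.

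A further 2 regions, chosen after their values were seen, show the other end of the range in CpG content. The region upstream of Rpl35 is given whole and carries part of the coding sequence of its divergent neighbour Arpc5l, and the stretch at Grm4 lies in an intron.
Rpl35 and Arpc5l, chr2:38863801-38863950: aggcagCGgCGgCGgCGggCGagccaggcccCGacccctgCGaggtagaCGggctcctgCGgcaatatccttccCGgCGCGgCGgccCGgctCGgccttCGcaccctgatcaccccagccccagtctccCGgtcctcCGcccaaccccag
Grm4, chr17:27648901-27649200: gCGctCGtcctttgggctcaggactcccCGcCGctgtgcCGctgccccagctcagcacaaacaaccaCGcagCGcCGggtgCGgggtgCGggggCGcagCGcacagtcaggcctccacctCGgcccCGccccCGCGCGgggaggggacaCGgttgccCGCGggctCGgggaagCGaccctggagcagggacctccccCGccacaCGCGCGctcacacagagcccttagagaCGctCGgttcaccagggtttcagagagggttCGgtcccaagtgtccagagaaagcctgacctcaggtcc
They held 18 CpG in 150 bases and 29 in 300, with a GC content of 76.0 and 71%.

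R500-only regions made up the majority of the peaks of R500, but a much smaller part of the genome that R500 peaks covered. They were 52.9% of 21888 distinct R500 peaks (52.2 to 53.6%) and 55.7% of 20776 regions with an R500 peak (55.1 to 56.4%). They covered 1.06 Mb, which is 23.4% of the bases covered in R500. The same count gave 4967 regions in the Parental line alone (52.7% of its regions), 14959 in R100 alone (61.8%), 3124 in R1000 alone (38.7%) and 1913 in R4000 alone (34.2%). R500 was therefore second to R100 in the number of regions of its own and second to it in their share.

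The R500-only regions were narrow. Each consisted of 1 R500 peak, between 50 and 800 bp wide, with a median of 100 bp and a mean of 91.6 ± 58.6 bp (SD, n = 11580 regions). Peak borders lie on a grid of 50 bp, and 5581 regions (48.2%) had the smallest width of 50 bp. Only 875 (7.56%) reached 200 bp and 15 reached 500 bp. The share of R500 peaks found in R500 alone fell with width at every step, from 83.5% of the 50-bp peaks and 65.8% of the 100-bp peaks to 44.2% at 150 bp, 29.9% at 200 bp and 13.8% between 250 and 450 bp. Among 2127 R500 peaks of at least 500 bp, 15 were found in R500 alone (0.705%, 0.428 to 1.16%). A wider peak has more bases at which it can overlap a peak of another line, so this order is tied to the rule that chose the regions.

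**Figure D1:**
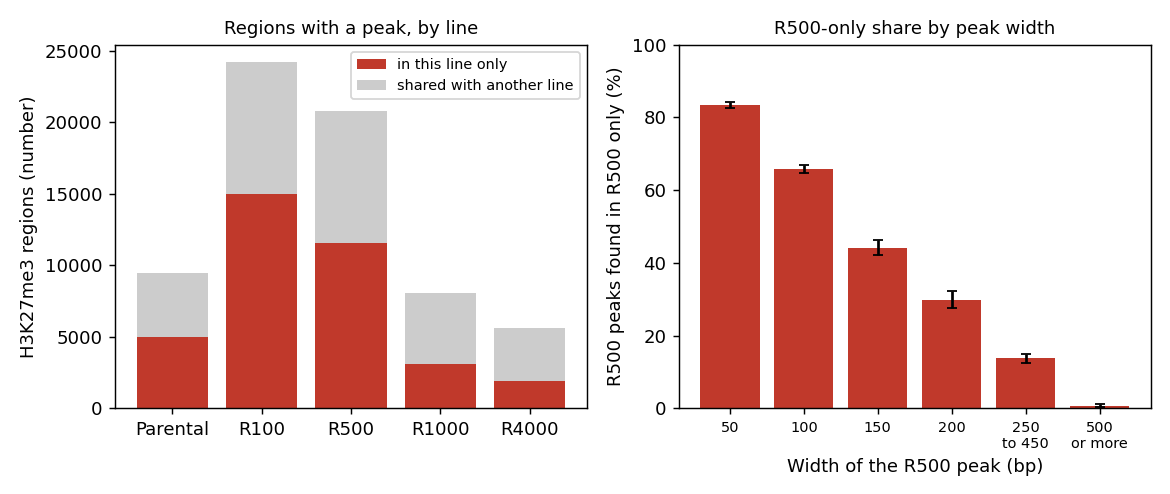
Left, number of H3K27me3 union regions with a peak in each line, with the regions found in that line only in red and those shared with another line in grey. Right, share (%) of R500 peaks found in R500 only against the width of the peak (bp), with 95% Wilson intervals as bars; the share fell from 83.5% of 50-bp peaks to 0.705% of peaks of at least 500 bp.

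The 10 widest R500-only regions were 500 to 800 bp wide. Of these, 5 lay between genes, near Car15 (800 bp), Uncx, Nfix, Gm17242 and Tlx1 (550 bp each), and another 550 bp lay 27353 bp from the non-coding gene Gm17699 and 209481 bp from Cxcr4, a chemokine receptor gene. The others lay in introns of Fam163a (700 bp), Ctif (650 bp) and Slc43a1 (500 bp) and in exons of Gas2l1 (700 bp). At Car15, a carbonic anhydrase gene, the region made up most of the R500 peaks within 5 kb on either side, which covered 1000 bp, while R100 had 150 bp there and the other lines none. At Nfix, a nuclear factor I gene, R500 had 600 bp around the region and R100, R1000 and R4000 50 bp each. At Slc43a1, an amino acid transporter gene, every line had peaks nearby, from 750 bp in the Parental line to 2800 bp in R500. The widest R500-only regions thus lay both where other lines had almost no peaks and within stretches marked in all of them.

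Around the threshold of the rule, many R500-only regions lay beside a peak of another line without sharing a base with it. For 1380 (11.9%) the nearest such peak directly adjoined the region, and for 843 (7.28%) it lay 1 to 50 bases away. For a further 4290 (37%) the gap was 51 to 1000 bases, for 2261 (19.5%) it was longer but at most 5 kb, and for 2806 (24.2%) it was over 5 kb. Among the 10308 R500 peaks that did overlap another line, 2722 (26.4%) shared only 50 bases with it, the width of 1 grid step, and the median shared length was 150 bp. Of these 2722, 1106 were 50-bp R500 peaks overlapped over their whole width, so their shared length does not tell how near a border lay. For the adjoining regions, a shift of 1 grid step in a border could have moved regions across the threshold. The wider of these peaks may share 50 bases at a border or with a whole 50-bp peak of another line. These cases were not separated, so how many of the wider peaks such a shift could have moved is unknown.

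R100 was the line whose peaks lay closest to the R500-only regions. Within 1 kb, 5513 regions (47.6%) had an R100 peak, 2446 (21.1%) a Parental peak, 2362 (20.4%) an R1000 peak and 1623 (14.0%) an R4000 peak. The median gap to the nearest peak was 1.20 kb for R100, 8.55 kb for the Parental line, 10.3 kb for R1000 and 23.3 kb for R4000, which is the order of the number of regions in these lists. Some 2910 R500-only regions (25.1%) lay within 1 kb of a region that R500 shared with another line, 653 of them (5.64% of all R500-only regions) beside a region of all 5 lines. Of R100-only regions, 21.8% lay within 1 kb of a region that R100 shared. At the other extreme, 2256 R500-only regions (19.5%) had no peak of any line, R500 included, within 5 kb. These solitary regions had a median width of 50 bp, and 32.8% of them lay within 5 kb of a TSS, against 58.5% of the 6513 regions with a peak of another line within 1 kb.

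R500-only regions also came in runs. Joined over gaps of up to 5 kb, they formed 7904 groups, of which 5749 were a single region (49.6% of the regions) and 2155 held at least 2. There were 162 groups of at least 5 regions. The largest, chosen after its values were seen like the others named here, held 14 regions totalling 1850 bp over 31.1 kb on chromosome 12 (chr12:81826101-81857200) between the genes 3830431G21Rik and Gm17242. Other lines also had peaks in that interval, with 1900 bp of Parental peaks, 4050 bp of R100 peaks, 5250 bp of R500 peaks, 1300 bp of R1000 peaks and 800 bp of R4000 peaks. Further long runs lay at Pax2, a regulator of kidney and eye development, with 12 regions over 19.6 kb (chr19:44809451-44829050), and across the start of the corepressor gene Ctbp2, with 11 regions over 19.5 kb (chr7:140297851-140317350). The Pax2 interval held 200 bp of Parental peaks, 2350 bp of R100 peaks and 2950 bp of R500 peaks. The Ctbp2 interval had no Parental peak, 1900 bp of R100 peaks and 2850 bp of R500 peaks. In each of these intervals other lines had peaks between the R500-only regions, and R100 and R500 were covered over more bases than the Parental line, R1000 and R4000.

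R500-only regions lay near genes, but less closely than the regions R500 shared with other lines. Of the 11580, 5580 (48.2%, 47.3 to 49.1%) lay within 5 kb of the TSS of an annotated gene, where 11.8% of the genome lies. This share was 52.6% of 14959 R100-only regions (51.8 to 53.4%), 68.7% of 3095 regions in R100 and R500 only (67.1 to 70.3%) and 81.7% of 1678 regions in all 5 lines (79.8 to 83.5%). The median distance to a TSS was 5481 bp for R500-only regions, 4351 bp for R100-only regions, 1574 bp for regions in R100 and R500 only and 450 bp for regions in all 5 lines. Within 2 kb the share of R500-only regions was 31.4%, against 5.05% of the genome. A TSS itself lay inside 79 R500-only regions (0.682%) and inside 22.6% of the regions in all 5 lines, whose median width was 1000 bp. The classes differ in width, which enters these distances, and R500-only regions themselves ranged from 42.9% within 5 kb of a TSS at a width of 50 bp to 64.4% between 250 and 450 bp.

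The regions were spread over gene bodies and the space between them. Exons were touched by 1748 R500-only regions (15.1%), among them 889 (7.68%) with coding bases, while 4340 (37.5%) lay in introns and 5492 (47.4%) between genes. Exons make up 3.28% of the genome, introns 36.5% and the rest 60.2%. Exonic regions were 20.5% of R100-only regions and 57.2% of regions in all 5 lines. Around protein-coding TSS, 4920 R500-only regions had their centre within 5 kb, and 58.0% of these lay downstream (56.6 to 59.3%), that is on the transcribed side, against 64.8% of R100-only regions (63.6 to 65.9%). The fullest bin lay 250 to 500 bp downstream and held 3.75% of R500-only regions, 6.26% of R100-only regions and 8.98% of regions in R100 and R500 only. The profile of R500-only regions around the TSS thus had its maximum at the same place as these classes and was the flattest of the 4 drawn.

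**Figure D2:**
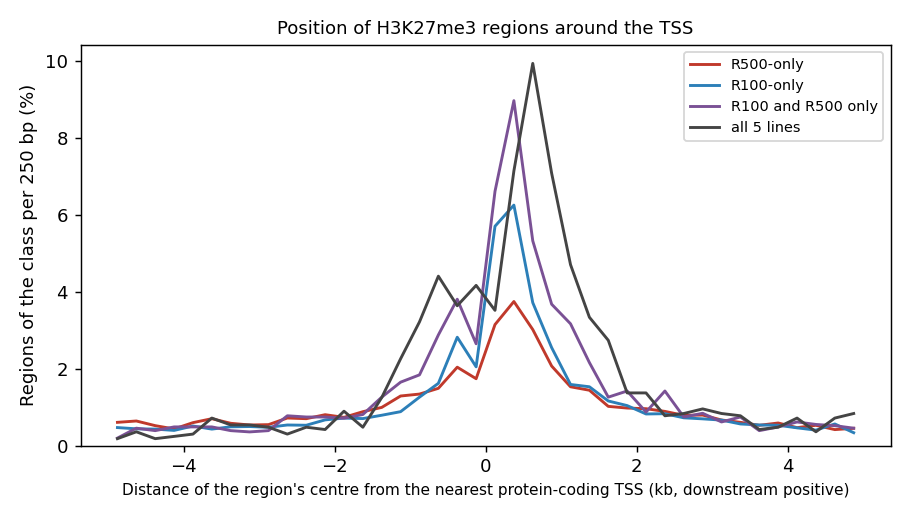
Share of the regions of each class (%) in bins of 250 bp by the distance of the region's centre from the nearest protein-coding TSS (kb, downstream positive). R500-only regions (red) peaked 250 to 500 bp downstream at 3.75%, below R100-only regions (blue, 6.26%), regions in R100 and R500 only (purple, 8.98%) and regions in all 5 lines (black, 9.95% at 500 to 750 bp).

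The DNA under the R500-only regions was richer in GC than the genome and poorer in CpG than that under the shared regions. In windows of 300 bp centred on each region, the median GC content was 50% (quartiles 46.7 and 54.3%), against 41.7% in 8527783 tiles of the same length across the genome, 52.3% in R100-only and 55.3% in regions of all 5 lines. CpG occurred 7.10 times per window on average in R500-only regions, 2.49 times in the genome tiles and 14.3 times in regions of all 5 lines. A window was called CpG-rich where GC was at least 50% and CpG at least 0.6 of the number its C and G content gives by chance. By this measure 1420 R500-only windows (12.3%, 11.7 to 12.9%) were CpG-rich, against 0.835% of the genome tiles, 19.5% of R100-only, 30% of R100 and R500 only and 39.0% of regions in all 5 lines. Parental-only regions stood lowest at 1.17% with a median GC of 44.7%. The widest windows printed above, with 4 to 7 CpG, are of the common kind, and the Rpl35 and Grm4 windows of the CpG-rich kind.

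Most of the CpG-rich windows lay near genes. Within 5 kb of a TSS 1215 of 5580 R500-only regions (21.8%, 20.7 to 22.9%) were CpG-rich, and farther away 205 of 6000 (3.42%, 2.99 to 3.91%). Width moved the share less, from 10.7% at 50 bp to 14.4% at 200 bp or more. Regions with no peak of another line within 5 kb were CpG-rich in 12.4% of cases, close to the share over all R500-only regions. The lower quartile of GC content in R500-only windows, 46.7%, was equal to the upper quartile of the genome tiles.

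**Figure D3:**
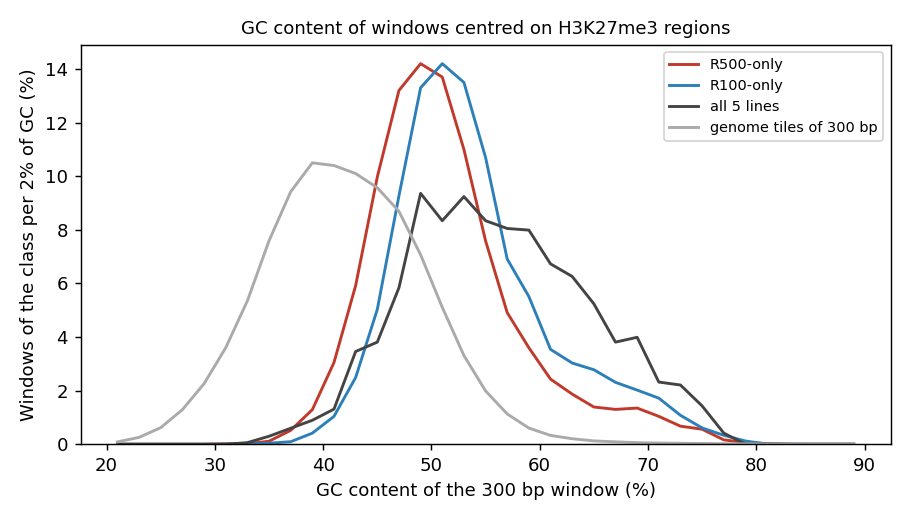
Share of windows (%) per 2% of GC content for 300-bp windows centred on R500-only regions (red), R100-only regions (blue) and regions in all 5 lines (black), and for tiles of the genome (grey). R500-only windows (median 50%) lay above the genome tiles (41.7%) and slightly below R100-only windows (52.3%), without the broad shoulder above 55% GC of regions in all 5 lines.

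Searches for 4 motifs were made on both strands of the same windows. CAGGTG, an E-box bound by E proteins such as E2a, a factor needed for B-cell commitment, was present in 24.1% of R500-only windows (23.4 to 24.9%), in 24.1% of all union regions, in 26.0% of R100-only windows and in 17.2% of genome tiles. CAGCTG, another E-box, was present in 18.7% of R500-only windows, 17.9% of all regions and 10.6% of tiles. CACGTG, the E-box of Myc and Max, was present in 4.84%, 5.07% and 2.92%, and the repeat GAGAGAGA in 4.33%, 4.02% and 5.12%. R500-only windows thus held each motif about as often as union regions in general. The genome tiles are poorer in GC, and these shares were not adjusted for it.

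R500-only regions reached a substantial number of genes, most of which had peaks of other lines too. Of 37273 annotated genes, 4953 (13.3%) had an R500-only region within 5 kb of the TSS, and of 22367 protein-coding genes 3860 (17.3%). The latter were 70.5% of the 5472 protein-coding genes with any R500 peak in that window. Another line had a peak in the same window at 3017 of the 3860 genes (78.2%), namely R100 at 2802 (72.6%), R1000 at 1721 (44.6%), the Parental line at 1486 (38.5%) and R4000 at 1420 (36.8%). R500 alone had peaks at the remaining 843 genes (3.77% of protein-coding genes). Over all annotated genes there were 1124 such genes (3.02%). The R500-only bases per gene were few, with a median of 100 bp, and 1182 genes had at least 2 such regions and 398 at least 3. R100-only regions lay at 5551 protein-coding genes (24.8%), and 2308 genes had both kinds, which is 59.8% of the genes with an R500-only region and 41.6% of those with an R100-only region.

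The 20 protein-coding genes with the most R500-only bases within 5 kb of the TSS held 9 homeobox genes together with signalling and cytoskeletal genes, and each of them also had R100 peaks. Ppp1r1b, which encodes the protein phosphatase inhibitor DARPP-32 of dopamine signalling, came first with 5 regions and 1150 bp. In its 10-kb window Parental peaks covered 100 bp, R100 peaks 2000 bp, R500 peaks 2150 bp, R1000 peaks 200 bp and R4000 peaks 150 bp. The regions lay on both sides of the TSS, the widest being 450 bp in an intron (chr11:98213751-98214200). R100 and R500 thus covered the gene over about the same length, while 1150 of the 2150 bp in R500 were in R500-only regions.

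Of the genes not described further here, Spats2 and Acoxl had 6 regions each, Gm14396 had 5, Neurog1, a factor of sensory neurons, had 4, Lhx2, a LIM homeobox factor, had 3 and Actn1, the cytoskeletal protein alpha-actinin 1, had 2.

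A cluster on chromosome 11 belonged to 2 neighbouring genes, Rasl10a, a Ras-like small GTPase, and Gas2l1, a linker of actin and microtubules. Their windows shared an R500-only region of 700 bp, all of it exonic and 670 bp coding in Gas2l1 (chr11:4961151-4961850), which touched a peak of another line at its border. The Rasl10a window held 5 regions with 1050 bp, and R100 peaks covered 950 bp of it, R500 peaks 1450 bp and R4000 peaks 150 bp, with no peak of the Parental line or R1000. The region at its TSS (chr11:4958051-4958150) had 38 CpG in the 300-bp window.

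Fam163a and Grm4 had peaks in R500 and R100 only, and most of their R500 coverage was in R500-only regions. Fam163a had 4 regions and 900 bp, which was its whole R500 coverage, with 100 bp in R100 and none in the Parental line, R1000 or R4000. Its widest region of 700 bp lay in an intron 1206 bp from the TSS (chr1:158133251-158133950) and ended 50 bases from an R100 peak. Grm4, a metabotropic glutamate receptor, had 3 regions with 750 of its 900 bp in R500, 300 bp in R100 and none elsewhere. Of these, 1 intronic region of 400 bp (chr17:27648901-27649300) was CpG-rich, and another of 300 bp lay upstream of the TSS.

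**Figure D4:**
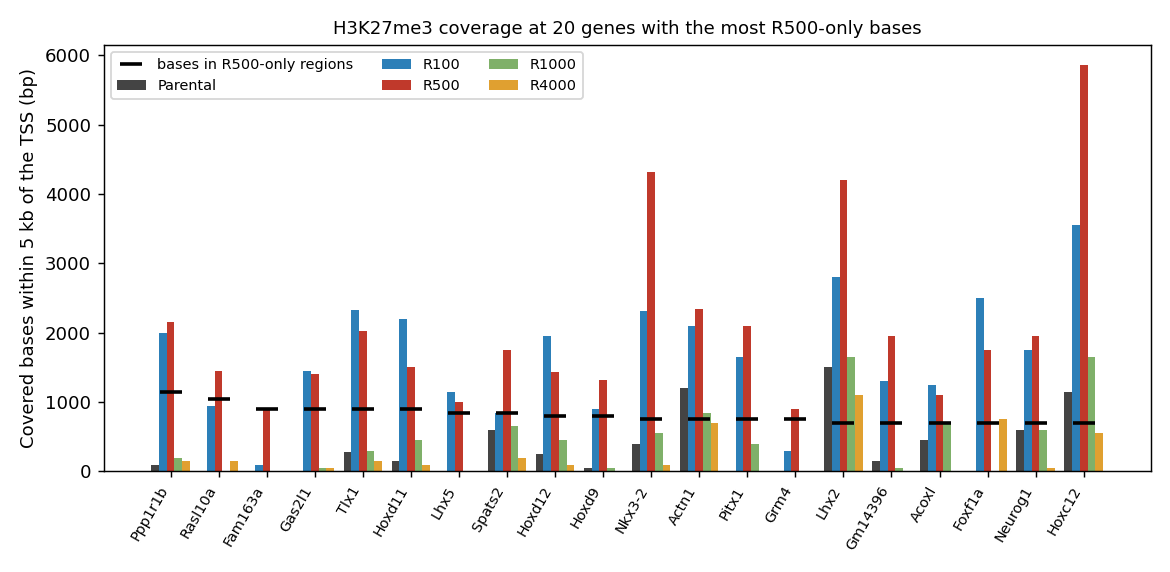
Bases covered by H3K27me3 peaks within 5 kb of the TSS (bp) in each of the 5 lines, for the 20 protein-coding genes with the most bases in R500-only regions, which black bars mark. R100 and R500 (blue and red) had the longest coverage at most of these genes, and at Fam163a the R500-only regions were the whole R500 coverage of 900 bp.

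Among developmental regulators, 25 of 40 Hox genes (62.5%) had an R500-only region within 5 kb, against 17.3% of all protein-coding genes. The Hox genes set position along the body axis, and 38 of them had some R500 peak. Of these 38, 65.8% had an R500-only region (49.9 to 78.8%), an interval that includes the 70.5% of all protein-coding genes with an R500 peak. Hoxd11 had 6 regions with 899 bp, beside 150 bp of Parental peaks, 2202 bp of R100 peaks, 1501 bp of R500 peaks, 450 bp of R1000 peaks and 100 bp of R4000 peaks. Hoxd12 shared several of them, and its own window had 5 regions with 800 bp. Hoxd9 had 6 regions with 800 bp, the widest of 400 bp upstream of the TSS (chr2:74534301-74534700), and R100 peaks covered 900 bp against 1314 bp for R500. Hoxc12 had 3 regions with 700 bp out of 5863 bp in R500, the longest R500 coverage of the 20 genes. At Hoxd8 (3 regions, 250 bp) and Hoxd4 (1 region, 50 bp) no other line had a peak in the window. R500 alone thus had peaks at 5.00% of the Hox genes, against 3.77% of all protein-coding genes.

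Homeobox and paired-box factors outside the Hox clusters followed, with 48 of 80 genes (60%), and 84.2% of those with any R500 peak. Lhx5, a LIM homeobox factor of the forebrain, had 6 regions with 850 bp, of which 1 of 200 bp reached the TSS (chr5:120881701-120881900), and R100 peaks covered 1150 bp, R500 peaks 1000 bp and the other lines none. Nkx3-2, a regulator of the axial skeleton, had 4 regions with 750 bp, all upstream, with coverage of 400, 2316, 4316, 550 and 100 bp from the Parental line to R4000 in the order of dose. Pitx1, which specifies the hindlimb, had 4 regions with 750 bp and coverage of 0, 1650, 2100, 400 and 0 bp. Tlx1, required for the spleen, had 4 regions with 900 bp, headed by the 550 bp upstream of its TSS printed above, and coverage of 275, 2325, 2025, 300 and 150 bp. Six3, an eye and forebrain factor, was the only one of the 80 where R500 alone had peaks, 2 of 50 bp each. That is 1.25% of the list, against 3.77% of all protein-coding genes.

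Sox, Tbx, Fox and Gata factors had R500-only regions at 39 of 81 genes (48.1%), and Wnt, Fgf, Bmp and Gdf ligands at 22 of 62 (35.5%). Foxf1a, a forkhead factor of lung mesenchyme, had 4 regions with 700 bp with 2500 bp of R100 peaks, 1750 bp of R500 peaks and 750 bp of R4000 peaks. Gata5, a cardiac and endodermal factor, had 4 regions with 400 bp, which was all of its R500 coverage, and 700 bp in R100 with none in the other lines. Of the ligands, Wnt10b had 3 regions with 400 bp out of 2800 bp in R500, and Wnt8a had 5 regions with 300 bp, equal to its whole R500 coverage, beside 300 bp in R100. Foxk1, Sox30, Fgf5 and Fgf21 were the members of these lists with peaks in R500 alone, each with 1 region of 50 or 100 bp. They are 2.47% of the Sox, Tbx, Fox and Gata factors and 3.23% of the ligands, against 3.77% of all protein-coding genes. The 4 groups of developmental genes stood above the 17.3% of all protein-coding genes. They are also groups in which any R500 peak was common, from 48.4% of the ligands to 95% of the Hox genes. R100-only regions were frequent there too, at 57.5% of the Hox genes and 63.8% of the other homeobox and paired-box genes. They lay at 58.0% of the Sox, Tbx, Fox and Gata genes and at 31 of 62 ligands. Their share of all protein-coding genes was 24.8%, so a raised share in these groups was not particular to R500-only regions.

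B-cell genes had R500-only regions less often than these developmental groups. Of 28 B-cell transcription factors 8 (28.6%, 15.3 to 47.1%) had an R500-only region, namely Id1, Lef1, Bach2, Id3, Irf8, Tcf12, Bcl11a and Irf4, while 17 had some R500 peak. The interval includes the 17.3% of all protein-coding genes. Any R500 peak lay at 60.7% of these factors, against 24.5% of all protein-coding genes. R100-only regions lay at 16 of the 28 (57.1%), against 24.8%. The lower share of these factors thus applied to R500-only regions and not to R500 peaks or R100-only regions. Irf4 and Irf8, interferon regulatory factors that act in germinal centre and plasma cell differentiation, each had 2 regions with 150 bp, which was their whole R500 coverage. R100 covered 500 bp at Irf4 and 300 bp at Irf8, the Parental line had no peak at either, and an Irf4 region of 50 bp lay in coding sequence (chr13:30842601-30842650). Id1, an inhibitor of E proteins, had 2 regions with 300 bp at a locus covered over 2500 to 4700 bp in every line. Lef1, a Wnt-responsive factor of early B cells, was the only one with peaks in R500 alone, 1 region of 100 bp (chr3:130813951-130814050). That is 3.57% of the list, against 3.77% of all protein-coding genes.

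Among 29 genes of the B-cell receptor complex and B-cell surface, 7 (24.1%, 12.2 to 42.1%, an interval that includes the 17.3%) had an R500-only region, among them Rag1, Cd40, Cd22, Cd24a, Cd79b and Sdc1. Cd40, the receptor for T-cell help, had 3 regions with 500 bp (the widest at chr2:164881551-164881800, 250 bp in an intron), and these were its whole R500 coverage, where the Parental line and R1000 had 50 bp each and R100 and R4000 100 bp each. Cd22, an inhibitory coreceptor of the B-cell receptor, had 1 region of 150 bp with no peak of another line within 5 kb of its TSS, the nearest lying 27450 bases from the region (chr7:31664301-31664450). It was the only listed gene with peaks in R500 alone (3.45%, against 3.77% of all protein-coding genes). Rag1, a recombinase of antigen receptor genes, had 1 region of 150 bp upstream, where the window held 58 bp of Parental peaks, 200 bp of R500 peaks and 50 bp of R1000 peaks.

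Polycomb subunits and H3K27 demethylases had R500-only regions at 5 of 29 genes (17.2%), close to the 17.3% of all protein-coding genes. Any R500 peak was more common there, at 13 of the 29 (44.8%), against 24.5% of all protein-coding genes. R100-only regions also lay at 13 of the 29 (44.8%), against 24.8%. At Suz12, a core subunit of polycomb repressive complex 2, and at Aebp2, its cofactor, R500 alone had a peak. That is 6.90% of the list, against 3.77% of all protein-coding genes. The Suz12 region was 50 bp wide, in an intron 643 bp from the TSS (chr11:79807251-79807300), and the Aebp2 region 100 bp wide, also intronic (chr6:140572951-140573050). The others were Pcgf2, Cbx2 and Cbx6, with 100 bp each among 2200, 1700 and 100 bp of R500 coverage.

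Genes of the p53 pathway and the Bcl2 family had R500-only regions at 16 of 36 (44.4%), against 17.3% of all protein-coding genes. Among those with any R500 peak the share was 80.0% (58.4 to 91.9%), an interval that includes the 70.5% of all protein-coding genes with an R500 peak. R100-only regions lay at 18 of the 36, against 24.8% of all protein-coding genes. Cdkn1a, the cell cycle inhibitor p21 and a target of p53, had 1 intronic region of 350 bp (chr17:29230151-29230500) in a window with 500 bp of Parental peaks, 1500 bp of R100 peaks, 1600 bp of R500 peaks, 800 bp of R1000 peaks and 1100 bp of R4000 peaks. The death receptor Tnfrsf10b had 3 regions with 250 of 550 bp in R500. Mdm2, the ubiquitin ligase that restrains p53, and the survival gene Bcl2l2 had peaks in R500 alone, of 100 and 50 bp, which is 5.56% of the list against 3.77% of all protein-coding genes. The Mdm2 region lay 214 bp downstream of the TSS in a CpG-rich window (chr10:117147501-117147600).

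Aldehyde dehydrogenases, which inactivate mafosfamide metabolites, glutathione transferases and the Abcb, Abcc and Abcg transporters had R500-only regions at 18 of 65 genes (27.7%), against 17.3% of all protein-coding genes. Of the listed genes with any R500 peak, 62.1% had an R500-only region (44.0 to 77.3%). That interval includes the 70.5% of all protein-coding genes with an R500 peak. R100-only regions lay at 15 of the 65 genes (23.1%), against 24.8% of all protein-coding genes. The aldehyde dehydrogenases among the 18 genes with an R500-only region were Aldh1a2, Aldh1l2 and Aldh3a2. R500 alone had peaks at 8 of the 65 (12.3%), against 3.77%. Among these were Gstm5, Gstk1, Gsta2, Abcc1, Abcc2, Abcc6 and Abcc8, and no aldehyde dehydrogenase was among the 8. Abcc8, a subunit of the ATP-sensitive potassium channel, had 2 intronic regions with 350 bp, and the nearest peak of another line lay 57150 bases away. Gstm5 had 2 regions with 200 bp, and each of the others named had 50 to 150 bp in all. Alkylation and crosslink repair genes had R500-only regions at 9 of 43 (20.9%, 11.4 to 35.2%), an interval that includes the 17.3% of all protein-coding genes, with at most 100 bp at each gene. R500 alone had a peak at Fancm, Fancc and Ercc3 (6.98%, against 3.77%). Fancm and Fancc belong to the Fanconi anaemia pathway of crosslink repair and Ercc3 to nucleotide excision repair.

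Most ribosomal protein genes had an R500 peak, and their share with an R500-only region was close to that of all protein-coding genes. Of 80 genes, 66 (82.5%) had an R500 peak within 5 kb of the TSS, and 15 (18.8%, 11.7 to 28.7%) had an R500-only region, which is 22.7% of those with a peak (14.3 to 34.2%), against 70.5% over all protein-coding genes. The next lowest lists on that measure were the polycomb genes (38.5%, 17.7 to 64.5%) and the B-cell transcription factors (47.1%, 26.2 to 69%), whose intervals overlap that of the ribosomal protein genes. Rpl35 and its divergent neighbour Arpc5l, a subunit of the actin-nucleating Arp2/3 complex, shared 3 R500-only regions of 500 bp in all, with the nearest peak of another line 34600 bases away. Rpl4 had 2 regions with 250 bp, its whole R500 coverage, beside 100 bp each in R1000 and R4000.

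Potassium channel genes had R500-only regions at 23 of 94 (24.5%), with R500 alone at 0 of them, and Kcne3, a regulatory subunit, had the most, with 3 regions and 600 bp. Protocadherins had them at 2 of 36 genes (5.56%, 1.54 to 18.1%), an interval that includes the 17.3% of all protein-coding genes. Replication-dependent histone genes (4 of 67, 5.97%) and olfactory receptors (12 of 1087, 1.10%) stood below that share. Few genes of these lists had any R500 peak. Hist3h2ba was an exception among the histone genes, with 5 regions and 400 bp out of 1450 bp in R500. R500 alone had peaks at 6 olfactory receptors (0.552%, against 3.77% of all protein-coding genes).

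**Figure D5:**
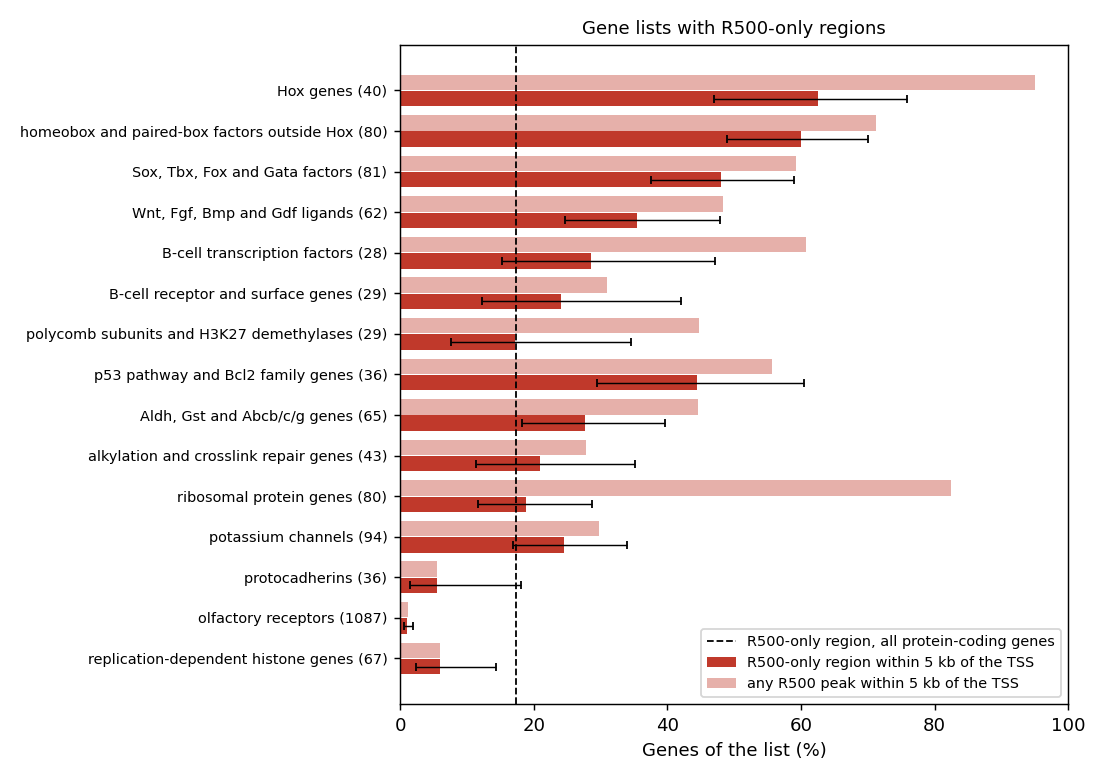
Share of the genes in each of 15 lists (%) with an R500-only region (dark red, with 95% Wilson intervals) and with any R500 peak (light red) within 5 kb of the TSS, with the number of genes in parentheses. The dashed line marks the 17.3% of all protein-coding genes with an R500-only region; the 4 developmental lists at the top lay at 35.5 to 62.5%, and ribosomal protein genes had the widest gap between both bars, 18.8% against 82.5%.

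Where R500 alone had peaks within 5 kb of a TSS, the coverage was short. Arrb1, which encodes the adaptor beta-arrestin 1, had the most, with 2 regions and 550 bp downstream of the TSS, the wider at chr7:106684251-106684750 and 25700 bases from the nearest peak of another line. Rpl35 and Arpc5l followed with the 500 bp they shared, then Nxnl1, a photoreceptor thioredoxin-like gene, with 5 regions and 500 bp, and Fam101a with 5 regions and 450 bp. Sost, the Wnt antagonist sclerostin, had 2 exonic regions of 200 bp each. Fam63a and its neighbour Prune shared 2 regions with 400 bp in all.

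R500-only regions were unevenly spread over the chromosomes. Chromosome 19 had the most per Mb (9, 523 regions), followed by chromosome 11 (7.62, 905 regions), chromosome 6 (6.61, 967 regions) and chromosome 1 (6.26, 1198 regions). Among autosomes chromosomes 14 and 16 had the fewest, 2.84 per Mb each, and chromosome X had 81 regions, 0.5 per Mb. R100-only regions per Mb were 10.1 on chromosome 19, 14.3 on chromosome 11, 9.94 on chromosome 6 and 0.728 on chromosome X. The R500-only share of R500 regions varied less, from 51.6% on chromosome 15 to 59.6% on chromosomes 9 and 18. On chromosome 1, 1198 R500-only regions stood beside 1180 R100-only regions, and on chromosome 11, 905 stood beside 1699. Copy number of the chromosomes in each line was not analysed here.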

How the data were processed

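H3K27me3 ChIP-seq was performed by the authors with an antibody to H3K27me3 in 5 lines, and peaks were called against input libraries in windows tiling the genome with Poisson statistics. The submitters' processing notes name Bowtie and mm9. The deposited lists hold 1 peak per line of text, and the values used are its positions in base pairs. The paper describes biological replicates of the ChIP-seq libraries and states a p-value limit for 50-bp bins in its promoter clustering. Whether a deposited list pools replicates, and whether that limit was used for it, are not given in the sources used here. Processed files of other assays were not analysed here.

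Lists were assigned to lines by their labels. Every peak occurs 2 times in the lists of R100 and R500, which were reduced to distinct peaks. Positions were counted from 1 with both ends included, and no peak ended beyond its chromosome in NCBIM37 (mm9). Union regions, distances, genes and sequence windows were computed with numpy 2.4.6 and pandas 2.3.3 under Python 3.11.15, and figures were drawn with matplotlib 3.10.9. The membership step was tested on simulated data, where 0 of 404 intervals differed from a base-by-base count. The TSS was the 5′ end of each of 37273 genes of GENCODE vM1. Wilson intervals (95%) cover counting error only.

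The members and the gene lists were chosen with earlier results of these data known. Regions named are the 10 widest with their nearest gene, the 20 genes with the most R500-only bases, up to 4 genes per list and, as stated, genes chosen after their values were seen. Spi1 and Syk were looked up as Sfpi1 and Sykb, the names in the annotation. The alternatives were other merging distances, minimum peak widths, lists of equal number, other distances from the TSS, protein-coding genes and autosomes only.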

Additional observations from a re-analysis of the deposited data

How the results depend on the processing

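The number of R500-only regions depended on how near another line's peak was allowed to lie and on peak width. With touching intervals merged there were 10200, which were 49.9% of the regions with an R500 peak, and 46.3% of them lay within 5 kb of a TSS. Merging over gaps of up to 1000 bp left 4651 regions, 38.8% of R500 regions, with 34.0% near a TSS and 1911 genes. Without 50-bp peaks in any list there were 6704 (47.1%, 54.0% near a TSS), and with peaks of at least 200 bp in every list 2028 (32.9%, 64.3%, 1437 genes). With the 6820 widest peaks of every list, as many as R4000 had, there were 1735 (27.5%, 61.6%, 1207 genes). Narrow peaks were dropped from the other lists too, so these counts include R500 peaks that thereby lost their overlap with another line. Of the 11580 reported regions only 875 reached 200 bp. The 2806 regions without a peak of another line within 5 kb were 13.5% of R500 regions, and 32.5% of them lay near a TSS, at 1067 genes. Within 2 kb of a TSS lay 31.4%, and within 5 kb of a protein-coding TSS 42.7%. The share near a TSS thus rose when narrow peaks were left out of every list and fell when regions close to other lines' peaks were left out. Of 32 alternative values, 9 stayed within the set limits of the reported one, among them all those on autosomes. Unknown depth limits every count here, since a peak absent from a list may have been below its threshold. No paired analysis was possible because each line has 1 list and no test was made, and leaving out a replicate was not possible for the same reason.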
